A study of Mus musculus with 24 samples.

Results

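The glycolysis and hypoxia response genes described here are 32 genes chosen by name: enzymes of glycolysis, the enzymes that decide the fate of pyruvate, carriers of glucose and lactate, and genes under the hypoxia-inducible factor HIF. They were found among 27656 genes on the array by symbol, older symbol or accession, and all 32 had a probe (57 of 41174 probes). Each gene was read from its brightest probe and tested where the scanner software called that probe well above background in the sample channel on all 3 arrays of at least 1 group, which left 31 of the 32 among 13486 tested genes. The untested member was Gapdh, the glyceraldehyde phosphate dehydrogenase of glycolysis, whose single probe was well above background on 0 of 24 arrays.

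Glycolysis splits glucose into pyruvate in a preparatory phase that spends ATP and a payoff phase that returns it. Lactate dehydrogenase then turns pyruvate into lactate, which leaves the cell through proton-coupled carriers. Pyruvate dehydrogenase instead commits pyruvate to use within the mitochondria. HIF is a transcription factor whose alpha subunit is marked for destruction by oxygen-dependent prolyl hydroxylases, and when oxygen is low it raises many glycolytic genes together with genes for blood vessel growth, pH control and collagen synthesis. Cultured fibroblasts draw much of their ATP from glycolysis.

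The cells were mouse embryonic fibroblasts taken at embryonic day 13.5 from C57BL6 mothers and fathers that each carried a single working copy of Stub1, and were cultured with beta-mercaptoethanol. Stub1 encodes CHIP, which attaches ubiquitin to clients of the heat shock chaperones. The series compared heated CHIP null, control CHIP null, heated wildtype and control wildtype cells, where heated cells were held at 43 °C and control cells at 37 °C, each with a label of 30 or 240 min, on 3 arrays per group and 24 arrays in all. The labels call the arrays of a condition biological replicates, without naming the embryos behind them, and no label used here states whether the minutes run to the end of heating or to harvest.

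Every value below is a log2 ratio of sample RNA in Cy5 to a common mouse reference RNA in Cy3, so levels of different genes are not set against each other. Between 33.7 and 42.6% of probes per array were well above background at the 30 min label and 44.9 to 49.6% at the 240 min label, and the number of arrays limits the precision. Stub1 lay between -2.43 and -1.72 on the 12 CHIP null arrays and between -0.24 and -0.01 on the 12 wildtype arrays. The columns of the authors' deposited value table correlated more closely with scanner arrays of the opposite time label than with those of their own. For this check heated scanner arrays were taken relative to their controls. The times given here are those of the scanner files, and the order of the times is not settled. Arrays of different time labels also lay on different slides, so that time and slide cannot be told apart.

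The 6 wildtype arrays of the 30 min label stood apart in sex-linked RNA. Ddx3y, a gene of the Y chromosome, was well above background on 6 of these 6 arrays and on 0 of the other 18. Xist, the RNA of the inactive X chromosome, was well above background on 0 of the 6 and on 18 of the 18. Genotype at the 30 min label and the sex of the embryos therefore cannot be told apart, while at the 240 min label both genotypes had Xist and no Y-linked signal. The 15 fibroblast markers were nearly all well above background in every group, with Fap and Pdgfra as the exceptions in some groups of the 30 min label. The summed Cy5 signal of 13 macrophage markers was 200 to 220 in heated and 555 to 854 in control CHIP null cells at 30 min, against 630 to 807 in heated and 2785 to 4385 in control wildtype cells. At 240 min the same sum was 518 to 590 and 578 to 672 in heated and control CHIP null cells, against 1286 to 1411 and 1121 to 1301 in wildtype cells, and the defining markers Itgam and Ptprc were at background in all 8 groups. The summed signal of the fibroblast markers was, at 30 min, 55290 to 70510 in heated and 72002 to 89227 in control CHIP null cells, against 35225 to 48377 in heated and 34205 to 51692 in control wildtype cells. At 240 min it was 125592 to 137494 in heated and 127741 to 148474 in control CHIP null cells, against 110887 to 121826 in heated and 101803 to 111091 in control wildtype cells. The sum of 8 endothelial markers was, at 30 min, 392 to 468 in heated and 519 to 724 in control CHIP null cells, against 208 to 320 in heated and 220 to 306 in control wildtype cells, with Cdh5, Pecam1 and Tek at background in all 8 groups. That of 8 muscle markers, all well above background in every group, was, at 30 min, 1576 to 4789 in heated and 4501 to 6634 in control CHIP null cells, against 2796 to 3844 in heated and 2151 to 3693 in control wildtype cells. The fibroblast, endothelial and muscle sums were thus higher in control CHIP null than control wildtype cells at 30 min. Within the endothelial list, however, Esam was at background in both CHIP null groups of 30 min and in no other group. There, 2 of the 8 markers were well above background on all 3 arrays in CHIP null controls, against 3 in wildtype controls. Tie1 was at background in all groups of that label. At 240 min the endothelial (954 to 1197 against 838 to 1089) and muscle sums (8372 to 9031 against 7933 to 8406) of the controls overlapped. The sum of 7 epithelial markers overlapped in 30 min controls (811 to 1542 against 650 to 925). At 240 min it was lower in CHIP null controls (1462 to 1558 against 2019 to 2390) and heated cells (1255 to 1383 against 2205 to 2385). Fewer cells of a type and less RNA per cell cannot be told apart in bulk RNA, and the part of these cell types in the results was not tested.

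RefSeq promoter windows (assembly GRCm38.p6, 250 bases before to 50 after the gene start) matched 30 of the 32 members with 44 windows in all. HIF binds the core ACGTG or GCGTG, and a search for both, on either strand, found at least 1 in 35 of the 44 member windows (79.5%), against 14380 of 32851 windows of all genes (43.8%). A heat shock factor pair, GAANNTTC or TTCNNGAA, was found in 4 member windows (9.09%), against 15.1% of all windows. Some windows of the same gene overlap, so a core can be counted more than once. By gene, 27 members had a core in at least 1 window. Some of the members were chosen as genes under HIF, and the difference in shares was not tested. Such a match describes the letters only. The windows of 4 members are printed because the results turn on them: Slc16a3 and P4ha2, higher in CHIP null cells, Ldhb, lower in CHIP null cells, and Hif1a, lower after heat. They lie at chr11:120948817-120949116 (+ strand), chr11:54100674-54100973 (+ strand), chr6:142507908-142508207 (- strand) and chr12:73907617-73907916 (+ strand), each spans its gene's start and is written 5′ to 3′ on the gene's strand, and capitals mark the cores.
Slc16a3: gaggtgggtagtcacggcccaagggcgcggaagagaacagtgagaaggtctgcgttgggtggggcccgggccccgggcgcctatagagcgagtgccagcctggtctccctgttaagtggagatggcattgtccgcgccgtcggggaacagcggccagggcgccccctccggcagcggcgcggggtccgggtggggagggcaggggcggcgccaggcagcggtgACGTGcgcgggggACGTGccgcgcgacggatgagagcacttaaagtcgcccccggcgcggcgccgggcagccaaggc
P4ha2: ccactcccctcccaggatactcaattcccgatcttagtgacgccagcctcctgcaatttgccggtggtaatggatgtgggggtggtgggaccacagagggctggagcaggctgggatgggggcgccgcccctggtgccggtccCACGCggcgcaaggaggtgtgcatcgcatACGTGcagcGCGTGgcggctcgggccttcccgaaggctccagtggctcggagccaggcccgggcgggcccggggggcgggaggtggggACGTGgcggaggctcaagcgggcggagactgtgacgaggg
Ldhb: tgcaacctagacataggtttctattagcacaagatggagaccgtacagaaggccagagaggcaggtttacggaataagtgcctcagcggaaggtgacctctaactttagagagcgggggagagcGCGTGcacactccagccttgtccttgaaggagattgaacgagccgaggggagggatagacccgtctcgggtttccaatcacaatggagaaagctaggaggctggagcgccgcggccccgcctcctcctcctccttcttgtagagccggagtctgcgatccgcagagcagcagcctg
Hif1a: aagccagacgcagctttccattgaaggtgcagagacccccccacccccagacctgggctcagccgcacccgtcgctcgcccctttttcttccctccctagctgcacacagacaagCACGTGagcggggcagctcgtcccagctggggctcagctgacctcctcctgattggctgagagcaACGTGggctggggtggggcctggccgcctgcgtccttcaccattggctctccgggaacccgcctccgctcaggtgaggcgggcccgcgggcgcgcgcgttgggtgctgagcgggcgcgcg
The Slc16a3 window held 2 cores, both within 27 bases before the gene start. P4ha2 had 4 cores, Ldhb 1 and Hif1a 3, of which a pair overlapped on opposite strands as a palindrome.

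CHIP null and wildtype cells differed in a few members at both labels. Slc16a3, the lactate exporter MCT4, was higher in CHIP null cells in all 4 genotype comparisons, by 1.92-fold to 2.78-fold. Ldhb, the lactate dehydrogenase subunit that favours turning lactate back to pyruvate, was lower by 1.6-fold to 2.26-fold. P4ha2, a collagen prolyl hydroxylase, was higher and Slc2a3, a glucose carrier, was lower in the same 4 comparisons. At the 30 min label 7 of 10 enzymes of the preparatory phase were called lower in heated and 7 in control cells, among them Aldoc, Pfkp and Pfkm in both, while Pfkl was called higher in control cells. Of all genes, 13.3% and 19.4% were called lower in heated and control cells at that label. With median centring the control calls of Hk1, Gpi1 and Pfkfb3 were lost and Aldoa turned sign. The heated calls of Gpi1 and Aldoa were lost as well. The differences of Aldoc, Pfkp and Pfkm were closer to 0 at 240 min by a test of that change, which Pfkm did not pass with median centring. Hif1a showed no genotype difference that passed the test.

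Tests were made with limma over all 24 arrays, with p-values adjusted by the Benjamini-Hochberg method over all tested genes and a call at an adjusted p under 0.05. Here ± is the standard error of a difference between groups of 3 arrays. In heated cells at the 30 min label, 5 of 31 tested members were called higher and 9 lower in CHIP null cells, where 14.2% and 13.3% of all tested genes were called higher and lower. In control cells at that label the counts were 5 higher and 14 lower, against 14.7% and 19.4% of all genes. At the 240 min label, 6 members were higher and 2 lower in heated cells, against 4.66% and 8.3% of all genes. In control cells at 240 min the counts were 5 and 4, against 4.8% and 8.26%. The median member differed by -0.06 in heated and -0.05 in control cells at 30 min and by 0.02 and 0.02 at 240 min, with medians over all genes between -0.02 and 0.01. Of the 31 members, 22 were called in at least 1 of the 4 genotype comparisons and 9 (Adm, Egln1, Eno1, Eno2, Hif1a, Hk2, P4ha1, Pdk1 and Tpi1) in none. The share of all genes called in at least 1 of these 4 is not given, so this count has no background beside it. No slide held both genotypes under the same treatment, so a fit with the slide as a block links the genotypes only through slides that join different treatments.

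**Figure D1:**
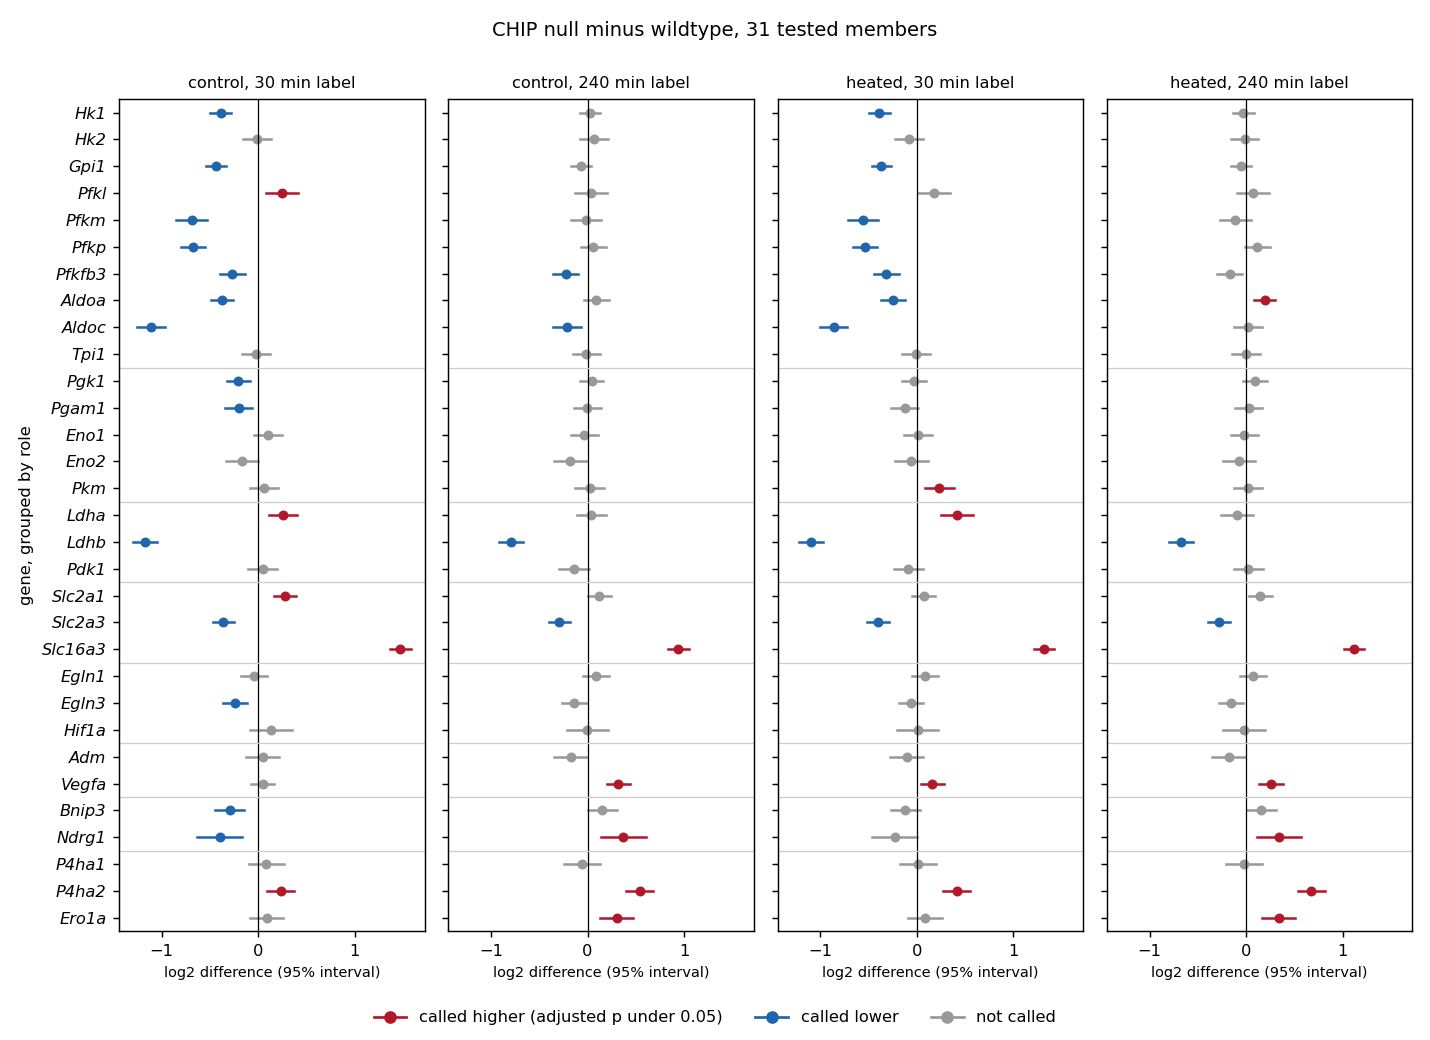
CHIP null minus wildtype log2 difference of the 31 tested members (rows, grouped by role) in heated and control cells at the 2 time labels (panels), with 95% intervals from the fit over 3 arrays per group; red marks calls higher and blue calls lower. Slc16a3 stands farthest to the right and Ldhb lies left of 0 in all 4 panels, while 7 of the 10 preparatory enzymes in the upper rows are called lower in each panel of the 30 min label and Pfkl lies right of 0 there. Of all genes, 13.3% in heated and 19.4% in control cells were called lower at that label.

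After heat, 16 of 31 members passed the test in at least 1 of the 4 comparisons and 15 in none. No share of all genes passing in at least 1 of the 4 is given, so this count also lacks a background. In the fit with loess no member moved by 0.5 or more in log2. Centring each array on its median instead gave Hif1a -0.90 at 240 min and Hk2 -0.78 at 30 min in CHIP null cells. Less the median of all genes under that setting, these were -0.73 and -0.59. In CHIP null cells at the 30 min label, 5 members were called higher and 5 lower after heat, where 22.6% and 12.6% of all genes were called. In CHIP null cells at 240 min, 9 were higher and 2 lower, against 24.5% and 14.5% of all genes. In wildtype cells at 30 min, 1 was higher (Eno1) and 1 lower (Hk2), against 6.77% and 7.79%. In wildtype cells at 240 min, 4 were higher and 1 lower (Hif1a), against 18.8% and 12.7%. Of the other probes of the members called, 2 of 2 had the same sign in CHIP null cells at 30 min and 0 passed. At 240 min 4 of 6 had the same sign in CHIP null cells and 0 passed. In wildtype cells at 240 min 2 of 2 had the same sign and 1 passed. The members called most often were Hif1a, the HIF alpha subunit, lower in 3 comparisons, and Eno1, an enolase, and Egln3, a HIF prolyl hydroxylase, each higher in 3. The median member differed by 0.06 and 0.08 in CHIP null cells at 30 and 240 min and by -0.03 and 0.06 in wildtype cells, where the medians of all genes were 0.03, 0.07, 0.01 and 0.06. With each array centred on its own median in place of loess, the median of all genes moved to -0.18 and -0.18 in CHIP null cells at 30 and 240 min, and small heat differences there turned sign with it, as given at each gene. Relative to that median, 3 of the 5 members called higher at 30 min lay above it (-0.08 to 0.34 in all 5), and 9 of 9 at 240 min (0.04 to 0.20). The median of the genotype difference in heated cells at 240 min moved likewise to -0.13, with 6 of 6 higher calls above it. Of the lower calls, 11 of 14 for genotype in controls at 30 min and 12 of 16 for time in wildtype controls lay below their medians. The same arrays gave the calls and these positions, so such counts are no separate support for the calls.

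**Figure D2:**
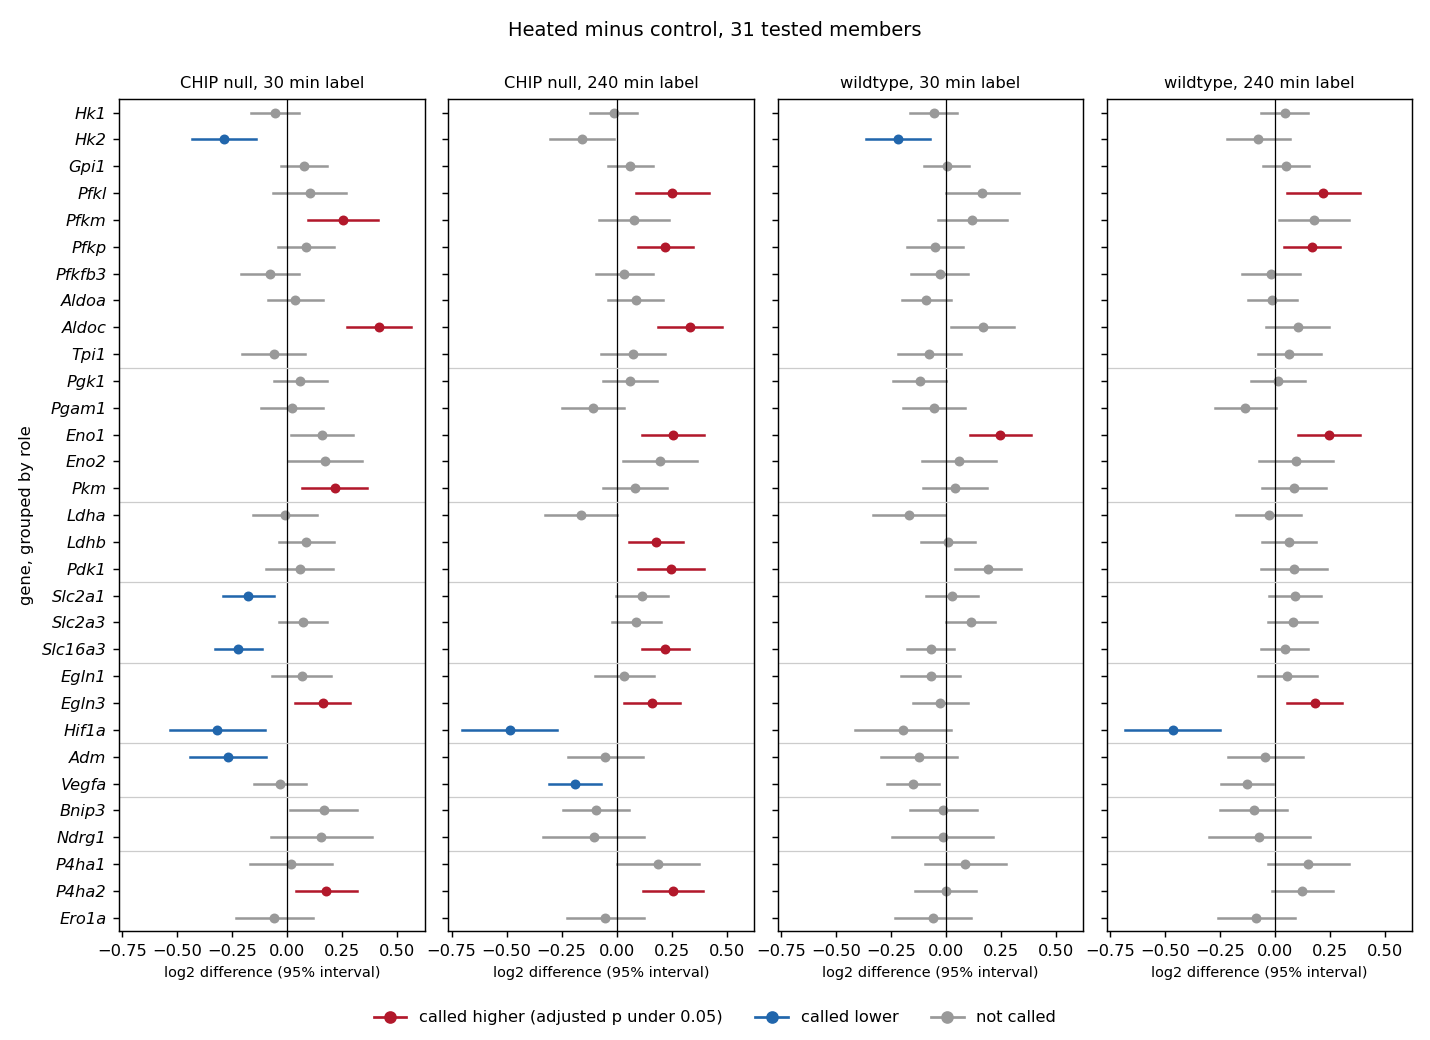
Heated minus control log2 difference of the 31 tested members (rows, grouped by role) in CHIP null and wildtype cells at the 2 time labels (panels), with 95% intervals from the fit over 3 arrays per group; red marks calls higher and blue calls lower. All differences lie within 0.5 of 0, with Hif1a the farthest to the left at 240 min in both genotypes and Aldoc the farthest to the right in CHIP null cells.

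Whether the heat effect differed between CHIP null and wildtype cells was tested as an interaction. By limma, 0 of 31 members passed at 30 min, against 0.445% of all genes, and 0 at 240 min, against 0%. At an unadjusted p under 0.05 there were 5 members at 30 min and 2 at 240 min. The share of all genes at that unadjusted level is not given, here or in other comparisons, so such counts have no background beside them. Aldoc, the brain-type aldolase, and Slc16a3 were among them at both labels. The difference of heat effects, CHIP null minus wildtype, was 0.25 ± 0.10 and 0.23 ± 0.10 for Aldoc at 30 and 240 min (adjusted p = 0.315 and 1). For Slc16a3 it was -0.15 ± 0.07 and 0.18 ± 0.07 (adjusted p = 0.421 and 1). For Hif1a it was -0.12 ± 0.15 and -0.02 ± 0.15 (95% interval -0.43 to 0.18 and -0.33 to 0.29).

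The alternatives named beside a call are median centring of each array in place of loess, the ratio deposited in the scanner files, an offset of 10 in place of 50 in the background correction, the slide as a block, the mean over a gene's probes, no filter on dim probes, and a fit of only the groups compared. Where arrays were left out singly, the group's array number is given, and the value in parentheses is the difference under that setting.

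The first steps of glycolysis trap glucose in the cell. Hk1 encodes hexokinase 1, the constitutive enzyme that phosphorylates glucose. Hk1 lay at -0.01, -0.04 and -0.03 in heated and 0.06, 0.00 and 0.03 in control CHIP null cells at the 30 min label, against 0.37, 0.37 and 0.35 in heated and 0.31, 0.47 and 0.48 in control wildtype cells. At 240 min Hk1 lay at -0.11, -0.07 and -0.10 in heated and -0.12, -0.06 and -0.06 in control CHIP null cells, against -0.05, -0.06 and -0.07 in heated and -0.18, -0.05 and -0.08 in control wildtype cells. Every CHIP null Hk1 array lay below every wildtype array in heated and control cells at 30 min, and the groups overlapped in heated and control cells at 240 min. For Hk1, CHIP null minus wildtype was -0.39 ± 0.05 in heated and -0.39 ± 0.05 in control cells at 30 min (adjusted p = 1.28e-06 and 1.05e-06) and -0.03 ± 0.05 and 0.03 ± 0.05 at 240 min (adjusted p = 0.786 and 0.836). Hk1 lost the 30 min control genotype call with median centring (-0.17). Its other probes past the filter, 3 in number, differed by -0.09, -0.10 and -0.09 in heated and -0.13, -0.01 and -0.04 in control cells at 30 min, and none passed. Every heated Hk1 array lay below every control array in CHIP null cells at 30 min, and the groups overlapped in the other comparisons. Heated minus control, Hk1 differed by -0.06 to 0.04, and no difference passed the test.

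Hk2 encodes hexokinase 2, the inducible hexokinase and a HIF target. Hk2 lay at -0.28, -0.17 and -0.29 in heated and 0.07, -0.09 and 0.15 in control CHIP null cells at the 30 min label, against -0.13, -0.16 and -0.21 in heated and 0.01, 0.06 and 0.09 in control wildtype cells. At 240 min Hk2 lay at 0.22, 0.06 and 0.01 in heated and 0.36, 0.07 and 0.32 in control CHIP null cells, against 0.12, 0.16 and 0.05 in heated and 0.15, 0.17 and 0.23 in control wildtype cells. The genotypes overlapped in Hk2 in all 4 comparisons. For Hk2, CHIP null minus wildtype lay between -0.08 and 0.06 in the 4 comparisons, and none passed. Every heated Hk2 array lay below every control array in both genotypes at 30 min, and the groups overlapped in both genotypes at 240 min. Heated minus control, Hk2 differed by -0.29 ± 0.07 in CHIP null cells at 30 min (adjusted p = 0.00269) and -0.22 ± 0.07 in wildtype cells at 30 min (adjusted p = 0.0368), and by -0.16 to -0.08 in the other comparisons, which did not pass. Hk2 lost the 30 min wildtype heat call with median centring, the slide block and no filter on dim probes (-0.40 to -0.22) and without any single array (-0.24 to -0.20). Gpi1 encodes glucose phosphate isomerase, which makes fructose 6-phosphate. Gpi1 lay at -0.90, -0.83 and -0.86 in heated and -0.92, -0.93 and -0.96 in control CHIP null cells at the 30 min label, against -0.52, -0.53 and -0.43 in heated and -0.52, -0.51 and -0.47 in control wildtype cells. At 240 min Gpi1 lay at -0.90, -0.83 and -0.77 in heated and -0.90, -0.88 and -0.91 in control CHIP null cells, against -0.80, -0.76 and -0.77 in heated and -0.81, -0.81 and -0.86 in control wildtype cells. Every CHIP null Gpi1 array lay below every wildtype array in heated cells at 30 min, control cells at 30 min and control cells at 240 min, and the groups overlapped in heated cells at 240 min. For Gpi1, CHIP null minus wildtype was -0.37 ± 0.05 in heated and -0.44 ± 0.05 in control cells at 30 min (adjusted p = 1.49e-06 and 5.61e-08) and -0.06 ± 0.05 and -0.07 ± 0.05 at 240 min (adjusted p = 0.543 and 0.434). Gpi1 lost the 30 min heated genotype call with median centring (-0.30). Gpi1 also lost the 30 min control genotype call with median centring (-0.05). Every heated Gpi1 array lay above every control array in CHIP null cells at 30 min and wildtype cells at 240 min, and the groups overlapped in CHIP null cells at 240 min and wildtype cells at 30 min. Heated minus control, Gpi1 differed by 0.00 to 0.08, and no difference passed the test.

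Phosphofructokinase, the main control point of glycolysis, has liver, muscle and platelet forms. Pfkl encodes the liver form. Pfkl lay at 0.15, -0.02 and 0.06 in heated and -0.15, 0.07 and -0.03 in control CHIP null cells at the 30 min label, against -0.27, -0.07 and -0.01 in heated and -0.35, -0.15 and -0.35 in control wildtype cells. At 240 min Pfkl lay at -0.16, 0.07 and 0.06 in heated and -0.27, -0.18 and -0.34 in control CHIP null cells, against -0.18, -0.01 and -0.06 in heated and -0.17, -0.38 and -0.36 in control wildtype cells. The genotypes overlapped in Pfkl in all 4 comparisons. For Pfkl, CHIP null minus wildtype was 0.18 ± 0.08 in heated and 0.25 ± 0.08 in control cells at 30 min (adjusted p = 0.0979 and 0.0192) and 0.07 ± 0.08 and 0.04 ± 0.08 at 240 min (adjusted p = 0.656 and 0.84). Pfkl lost the 30 min control genotype call with the deposited log ratio (0.30) and the slide block (0.09) and without CHIP null arrays 2 or 3 or wildtype arrays 1 or 3 (0.19 to 0.24). Every heated Pfkl array lay above every control array in CHIP null cells at 240 min, and the groups overlapped in the other comparisons. Heated minus control, Pfkl differed by 0.25 ± 0.08 in CHIP null cells at 240 min (adjusted p = 0.0159) and 0.22 ± 0.08 in wildtype cells at 240 min (adjusted p = 0.04), and by 0.10 to 0.16 in the other comparisons, which did not pass. Pfkl lost the 240 min CHIP null heat call with the deposited log ratio (0.33) and without heated arrays 2 or 3 or control array 3 (0.21 to 0.22), with a turned sign under median centring (-0.09). Pfkl also lost the 240 min wildtype heat call with median centring, the deposited log ratio, an offset of 10, the slide block and no filter on dim probes (0.06 to 0.26) and without heated arrays 2 or 3 or control arrays 2 or 3 (0.18 to 0.21). Pfkm encodes the muscle form. Pfkm lay at -2.71, -2.56 and -2.52 in heated and -3.10, -2.68 and -2.76 in control CHIP null cells at the 30 min label, against -2.002, -2.10 and -2.01 in heated and -2.27, -2.11 and -2.10 in control wildtype cells. At 240 min Pfkm lay at -2.79, -2.73 and -2.74 in heated and -2.94, -2.78 and -2.78 in control CHIP null cells, against -2.69, -2.61 and -2.63 in heated and -2.79, -2.82 and -2.85 in control wildtype cells. Every CHIP null Pfkm array lay below every wildtype array in heated cells at 30 min, control cells at 30 min and heated cells at 240 min, and the groups overlapped in control cells at 240 min. For Pfkm, CHIP null minus wildtype was -0.56 ± 0.08 in heated and -0.69 ± 0.08 in control cells at 30 min (adjusted p = 1.7e-06 and 3.73e-08) and -0.11 ± 0.08 and -0.02 ± 0.08 at 240 min (adjusted p = 0.413 and 0.94). Pfkm lost the 30 min heated genotype call with the slide block (-0.41). Every heated Pfkm array lay above every control array in wildtype cells at 240 min, and the groups overlapped in the other comparisons. Heated minus control, Pfkm differed by 0.25 ± 0.08 in CHIP null cells at 30 min (adjusted p = 0.0125), and by 0.08 to 0.18 in the other comparisons, which did not pass. Pfkm lost the 30 min CHIP null heat call with the deposited log ratio, an offset of 10, the slide block and only those groups in the fit (0.14 to 0.25) and without heated array 3 or control array 1 (0.12 to 0.21), with a turned sign under median centring (-0.14).

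Pfkp encodes the platelet form of phosphofructokinase. Pfkp lay at -0.43, -0.30 and -0.32 in heated and -0.39, -0.46 and -0.46 in control CHIP null cells at the 30 min label, against 0.19, 0.22 and 0.16 in heated and 0.27, 0.29 and 0.16 in control wildtype cells. At 240 min Pfkp lay at -0.34, -0.23 and -0.18 in heated and -0.45, -0.36 and -0.61 in control CHIP null cells, against -0.39, -0.40 and -0.31 in heated and -0.51, -0.56 and -0.54 in control wildtype cells. Every CHIP null Pfkp array lay below every wildtype array in heated and control cells at 30 min, and the groups overlapped in heated and control cells at 240 min. For Pfkp, CHIP null minus wildtype was -0.54 ± 0.06 in heated and -0.67 ± 0.06 in control cells at 30 min (adjusted p = 7.3e-08 and 8.65e-10) and 0.12 ± 0.06 and 0.06 ± 0.06 at 240 min (adjusted p = 0.246 and 0.617). The other probes of Pfkp gave -0.12 and -0.01 in heated and -0.32 and 0.08 in control cells at 30 min, of which only the -0.32 passed. Every heated Pfkp array lay above every control array in both genotypes at 240 min, and the groups overlapped in both genotypes at 30 min. Heated minus control, Pfkp differed by 0.22 ± 0.06 in CHIP null cells at 240 min (adjusted p = 0.00651) and 0.17 ± 0.06 in wildtype cells at 240 min (adjusted p = 0.0418), and by -0.05 to 0.08 in the other comparisons, which did not pass. Pfkp lost the 240 min CHIP null heat call with the mean over probes (0.13) and without heated array 3 or control array 3 (0.16 to 0.19), with a turned sign under median centring (-0.10). Pfkp also lost the 240 min wildtype heat call with median centring, the deposited log ratio, an offset of 10, the slide block, the mean over probes and no filter on dim probes (0.02 to 0.20) and without any single array (0.14 to 0.18). Pfkfb3 makes fructose 2,6-bisphosphate, the strongest activator of phosphofructokinase, and is a HIF target. Pfkfb3 lay at -1.44, -1.25 and -1.21 in heated and -1.21, -1.15 and -1.30 in control CHIP null cells at the 30 min label, against -1.04, -1.003 and -0.90 in heated and -0.93, -0.95 and -0.99 in control wildtype cells. At 240 min Pfkfb3 lay at -1.18, -1.33 and -1.23 in heated and -1.28, -1.31 and -1.25 in control CHIP null cells, against -1.07, -1.04 and -1.12 in heated and -1.12, -1.10 and -0.95 in control wildtype cells. In all 4 comparisons every CHIP null array of Pfkfb3 lay below every wildtype array. For Pfkfb3, CHIP null minus wildtype was -0.32 ± 0.06 in heated and -0.27 ± 0.06 in control cells at 30 min (adjusted p = 0.000298 and 0.00151) and -0.17 ± 0.06 and -0.23 ± 0.06 at 240 min (adjusted p = 0.0768 and 0.0156). Pfkfb3 lost the 30 min heated genotype call with the slide block (-0.30). Pfkfb3 also lost the 30 min control genotype call with median centring (-0.14) and the slide block (-0.08). Pfkfb3 also lost the 240 min control genotype call with median centring (-0.17) and the slide block (-0.23) and without CHIP null array 2 or wildtype array 3 (-0.21 to -0.17). For Pfkfb3 the heated and control arrays overlapped in all 4 comparisons. Heated minus control, Pfkfb3 differed by -0.08 to 0.04, and no difference passed the test.

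Aldolases split fructose 1,6-bisphosphate. Aldoa encodes the muscle aldolase, the form of most cells, and a spot left out as an outlier on heated CHIP null array 1 at 30 min and on control CHIP null array 2 at 240 min leaves 2 values in these groups. Aldoa lay at -1.60 and -1.66 in heated and -1.68, -1.63 and -1.70 in control CHIP null cells at the 30 min label, against -1.40, -1.44 and -1.32 in heated and -1.22, -1.36 and -1.30 in control wildtype cells. At 240 min Aldoa lay at -1.51, -1.45 and -1.41 in heated and -1.57 and -1.52 in control CHIP null cells, against -1.63, -1.69 and -1.63 in heated and -1.68, -1.63 and -1.61 in control wildtype cells. Every CHIP null Aldoa array lay above every wildtype array in heated and control cells at 240 min and below all of them in heated and control cells at 30 min. Its genotype difference thus had opposite signs at the 2 labels. For Aldoa, CHIP null minus wildtype was -0.25 ± 0.06 in heated and -0.37 ± 0.05 in control cells at 30 min (adjusted p = 0.00285 and 4.9e-06) and 0.19 ± 0.05 and 0.09 ± 0.06 at 240 min (adjusted p = 0.0187 and 0.397). Aldoa lost the 30 min heated genotype call with median centring (-0.08) and the slide block (-0.26). Aldoa also turned sign in the 30 min control genotype call under median centring (0.11). Aldoa also lost the 240 min heated genotype call with the deposited log ratio, the slide block, the mean over probes and only those groups in the fit (0.07 to 0.19) and without CHIP null arrays 2 or 3 or wildtype array 2 (0.17 to 0.19), with a turned sign under median centring (-0.005). The other Aldoa probe gave -0.26 in heated and -0.31 in control cells at 30 min, both past the test, and -0.05 and -0.02 at 240 min, which did not pass. Every heated Aldoa array lay above every control array in CHIP null cells at 240 min, and the groups overlapped in the other comparisons. Heated minus control, Aldoa differed by -0.09 to 0.09, and no difference passed the test.

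Aldoc encodes the brain-type aldolase, a HIF target. Aldoc lay at -0.90, -0.97 and -0.93 in heated and -1.48, -1.19 and -1.39 in control CHIP null cells at the 30 min label, against -0.11, -0.04 and -0.07 in heated and -0.29, -0.22 and -0.21 in control wildtype cells. At 240 min Aldoc lay at -1.33, -1.13 and -1.08 in heated and -1.52, -1.51 and -1.51 in control CHIP null cells, against -1.30, -1.22 and -1.07 in heated and -1.35, -1.30 and -1.25 in control wildtype cells. Every CHIP null Aldoc array lay below every wildtype array in heated cells at 30 min, control cells at 30 min and control cells at 240 min, and the groups overlapped in heated cells at 240 min. At 30 min its gap between the genotypes was the widest of the preparatory enzymes. For Aldoc, CHIP null minus wildtype was -0.86 ± 0.07 in heated and -1.11 ± 0.07 in control cells at 30 min (adjusted p = 8.48e-11 and 3.3e-13) and 0.02 ± 0.07 and -0.21 ± 0.07 at 240 min (adjusted p = 0.91 and 0.0429). Aldoc lost the 240 min control genotype call with median centring, the deposited log ratio, an offset of 10, the slide block, the mean over probes and no filter on dim probes (-0.37 to -0.05) and without any single array (-0.24 to -0.19). The other Aldoc probe gave -0.28 and -0.37 at 30 min, both past the test, and 0.09 and 0.11 at 240 min, which did not pass. Every heated Aldoc array lay above every control array in CHIP null cells at 30 min, CHIP null cells at 240 min and wildtype cells at 30 min, and the groups overlapped in wildtype cells at 240 min. Heated minus control, Aldoc differed by 0.42 ± 0.07 in CHIP null cells at 30 min (adjusted p = 8.72e-05) and 0.33 ± 0.07 in CHIP null cells at 240 min (adjusted p = 0.000711), and by 0.10 to 0.17 in the other comparisons, which did not pass. Aldoc lost the 30 min CHIP null heat call with median centring (0.16). Aldoc also lost the 240 min CHIP null heat call with median centring (0.02). For that other probe the heat differences in CHIP null cells were 0.09 and -0.02 at 30 and 240 min, and neither passed. Tpi1, the triose phosphate isomerase that links the preparatory and payoff phases, ranged over -1.85 to -1.31 on the 24 arrays and was called in no heat or genotype comparison.

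**Figure D3:**
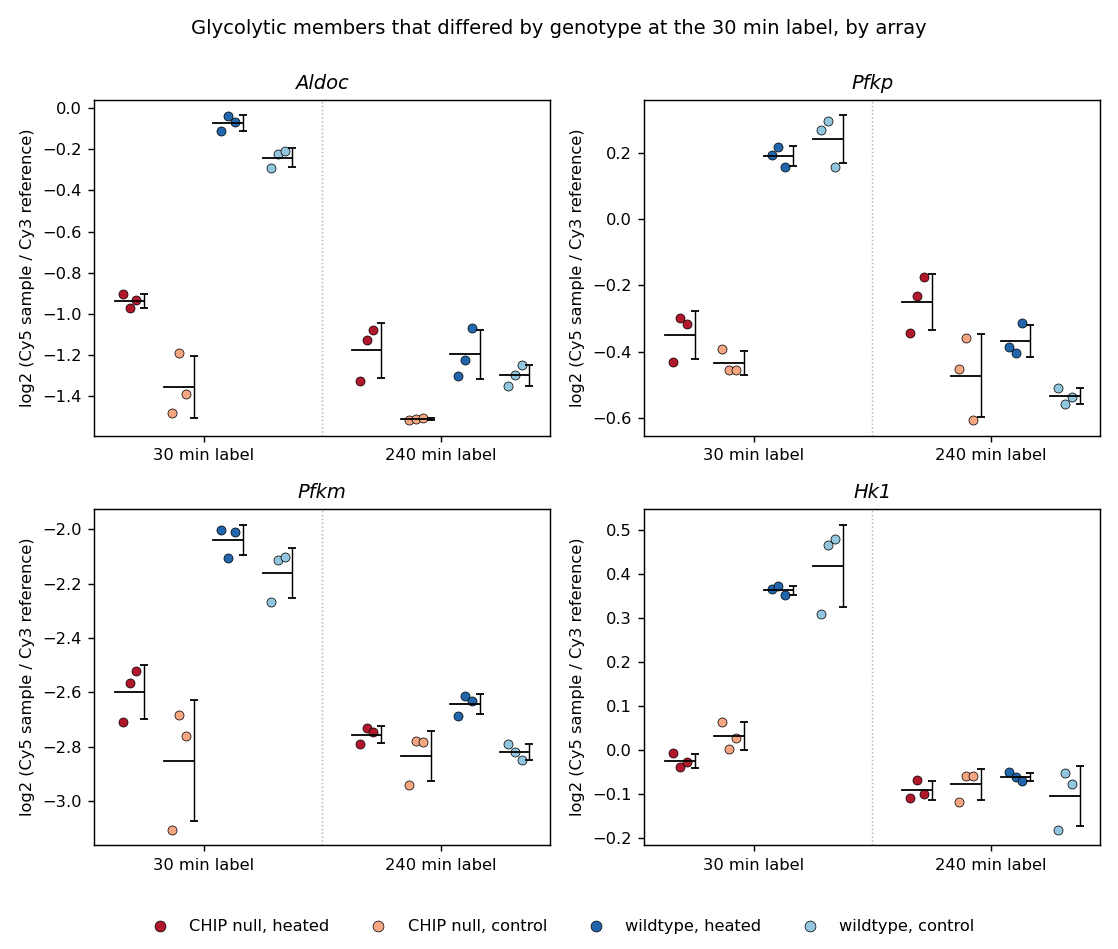
Log2 ratio of Aldoc, Pfkp, Pfkm and Hk1 on each array (points), with the group mean (line) and SD (bar, n = 3), for heated and control CHIP null and wildtype cells at the 2 time labels. All CHIP null arrays of the 30 min label lie below all wildtype arrays of that label, and at 240 min the genotypes lie close together.

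Among the enzymes of the payoff phase, Pgk1, the phosphoglycerate kinase of the X chromosome, ranged over -0.15 to 0.25 on the 24 arrays and was lower in CHIP null controls at 30 min (-0.21 ± 0.06, adjusted p = 0.00746). Pgk1 lost the 30 min control genotype call with an offset of 10 (-0.15) and the slide block (-0.05), with a turned sign under median centring (0.15). Pgam1, a phosphoglycerate mutase, ranged over 0.80 to 1.36 and was also lower there (-0.20 ± 0.07, adjusted p = 0.0225). Pgam1 lost the 30 min control genotype call with the deposited log ratio, an offset of 10, the slide block and only those groups in the fit (-0.20 to -0.10) and without CHIP null array 3 or wildtype array 3 (-0.14), with a turned sign under median centring (0.17). Eno2, the neuronal enolase, ranged over -0.91 to -0.40, was well above background on 22 of 24 arrays and was called in no heat or genotype comparison.

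Eno1 encodes the enolase of most tissues and is a HIF target. Eno1 lay at 1.04, 0.96 and 0.99 in heated and 0.92, 0.85 and 0.75 in control CHIP null cells at the 30 min label, against 0.96, 1.09 and 0.92 in heated and 0.81, 0.73 and 0.67 in control wildtype cells. At 240 min Eno1 lay at 1.19, 1.38 and 1.46 in heated and 1.08, 1.10 and 1.08 in control CHIP null cells, against 1.26, 1.44 and 1.38 in heated and 1.09, 1.05 and 1.22 in control wildtype cells. The genotypes overlapped in Eno1 in all 4 comparisons. For Eno1, CHIP null minus wildtype lay between -0.03 and 0.10 in the 4 comparisons, and none passed. In all 4 comparisons every heated array of Eno1 lay above every control array. Heated minus control, Eno1 differed by 0.26 ± 0.07 in CHIP null cells at 240 min (adjusted p = 0.0048), 0.25 ± 0.07 in wildtype cells at 30 min (adjusted p = 0.0151) and 0.24 ± 0.07 in wildtype cells at 240 min (adjusted p = 0.00861), and by 0.16 ± 0.07 in CHIP null cells at 30 min, which did not pass. Eno1 turned sign in the 240 min CHIP null heat call under median centring (-0.07). Eno1 also lost the 30 min wildtype heat call with median centring (0.10) and the slide block (0.31) and without heated array 2 or control array 3 (0.20 to 0.22). Eno1 also lost the 240 min wildtype heat call with median centring, the deposited log ratio and the slide block (0.13 to 0.27) and without heated array 2 or control array 2 (0.20 to 0.21). Pkm (Pkm2 in older names) encodes the muscle pyruvate kinase, which makes pyruvate. Pkm lay at 0.87, 1.18 and 1.01 in heated and 0.80, 0.88 and 0.73 in control CHIP null cells at the 30 min label, against 0.78, 0.75 and 0.82 in heated and 0.74, 0.69 and 0.80 in control wildtype cells. At 240 min Pkm lay at 0.72, 0.82 and 0.84 in heated and 0.69, 0.82 and 0.62 in control CHIP null cells, against 0.64, 0.78 and 0.90 in heated and 0.70, 0.72 and 0.64 in control wildtype cells. Every CHIP null Pkm array lay above every wildtype array in heated cells at 30 min, and the groups overlapped in the other comparisons. Heated CHIP null arrays 2 and 3 of the 30 min label held the highest values of all 24 arrays. For Pkm, CHIP null minus wildtype was 0.23 ± 0.07 in heated and 0.06 ± 0.07 in control cells at 30 min (adjusted p = 0.0136 and 0.549) and 0.02 ± 0.07 and 0.02 ± 0.07 at 240 min (adjusted p = 0.92 and 0.908). Pkm lost the 30 min heated genotype call with median centring (0.26) and without CHIP null array 2 (0.16). The other Pkm probe gave 0.27 in heated and 0.19 in control cells at 30 min, of which the heated difference passed. For Pkm the heated and control arrays overlapped in all 4 comparisons. Heated minus control, Pkm differed by 0.22 ± 0.07 in CHIP null cells at 30 min (adjusted p = 0.0202), and by 0.04 to 0.09 in the other comparisons, which did not pass. Pkm lost the 30 min CHIP null heat call with an offset of 10, the slide block and only those groups in the fit (0.07 to 0.22) and without heated array 2 or control array 3 (0.14 to 0.18), with a turned sign under median centring (-0.19).

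Lactate dehydrogenase is a tetramer of A and B subunits, and their balance sets whether the enzyme favours lactate or pyruvate. Ldhb encodes the B subunit, common in heart. Ldhb lay at -2.13, -2.06 and -1.95 in heated and -2.15, -2.17 and -2.09 in control CHIP null cells at the 30 min label, against -0.997, -0.94 and -0.92 in heated and -0.99, -0.85 and -1.05 in control wildtype cells. At 240 min Ldhb lay at -2.33, -2.25 and -2.28 in heated and -2.40, -2.48 and -2.52 in control CHIP null cells, against -1.64, -1.67 and -1.53 in heated and -1.70, -1.67 and -1.66 in control wildtype cells. In all 4 comparisons every CHIP null array of Ldhb lay below every wildtype array. All 12 CHIP null arrays lay below all 12 wildtype arrays, whatever their label. For Ldhb, CHIP null minus wildtype was -1.10 ± 0.06 in heated and -1.18 ± 0.06 in control cells at 30 min (adjusted p = 1.45e-14 and 2.61e-15) and -0.68 ± 0.06 and -0.79 ± 0.06 at 240 min (adjusted p = 2.07e-09 and 7.19e-11). Every heated Ldhb array lay above every control array in CHIP null cells at 240 min, and the groups overlapped in the other comparisons. Heated minus control, Ldhb differed by 0.18 ± 0.06 in CHIP null cells at 240 min (adjusted p = 0.0206), and by 0.01 to 0.09 in the other comparisons, which did not pass. Ldhb lost the 240 min CHIP null heat call with the deposited log ratio, an offset of 10 and only those groups in the fit (0.16 to 0.18) and without heated arrays 2 or 3 or control array 3 (0.15 to 0.18), with a turned sign under median centring (-0.08).

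Ldha encodes the A subunit, a HIF target, and a spot left out as an outlier on heated CHIP null array 1 at 240 min and on heated wildtype array 1 at 30 min leaves 2 values in these groups. Ldha lay at 0.29, 0.55 and 0.49 in heated and 0.49, 0.45 and 0.42 in control CHIP null cells at the 30 min label, against -0.09 and 0.15 in heated and 0.30, 0.10 and 0.19 in control wildtype cells. At 240 min Ldha lay at 0.26 and 0.30 in heated and 0.48, 0.36 and 0.48 in control CHIP null cells, against 0.35, 0.46 and 0.30 in heated and 0.39, 0.44 and 0.37 in control wildtype cells. Every CHIP null Ldha array lay above every wildtype array in heated and control cells at 30 min, and the groups overlapped in heated and control cells at 240 min. For Ldha, CHIP null minus wildtype was 0.41 ± 0.08 in heated and 0.26 ± 0.07 in control cells at 30 min (adjusted p = 0.000239 and 0.00635) and -0.09 ± 0.08 and 0.04 ± 0.07 at 240 min (adjusted p = 0.531 and 0.807). Ldha lost the 30 min control genotype call with the deposited log ratio (0.20) and the mean over probes (0.20). The other Ldha probe gave 0.21 in heated and 0.14 in control cells at 30 min and 0.22 and 0.09 at 240 min, and only the heated differences passed. Every heated Ldha array lay below every control array in CHIP null cells at 240 min, and the groups overlapped in the other comparisons. Heated minus control, Ldha differed by -0.17 to -0.01, and no difference passed the test.

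Pdk1 encodes a pyruvate dehydrogenase kinase, the HIF target that restrains the use of pyruvate within the mitochondria. Its probe was well above background on 1 of 3 heated CHIP null arrays and 2 of 3 arrays of both wildtype groups at 30 min. Pdk1 lay at -1.32, -1.27 and -1.42 in heated and -1.29, -1.28 and -1.60 in control CHIP null cells at the 30 min label, against -1.33, -1.27 and -1.13 in heated and -1.43, -1.50 and -1.38 in control wildtype cells. At 240 min Pdk1 lay at -1.78, -1.78 and -1.77 in heated and -2.09, -1.90 and -2.09 in control CHIP null cells, against -1.80, -1.72 and -1.88 in heated and -1.93, -1.86 and -1.87 in control wildtype cells. The genotypes overlapped in Pdk1 in all 4 comparisons. For Pdk1, CHIP null minus wildtype lay between -0.14 and 0.04 in the 4 comparisons, and none passed. Every heated Pdk1 array lay above every control array in CHIP null cells at 240 min and wildtype cells at 30 min, and the groups overlapped in CHIP null cells at 30 min and wildtype cells at 240 min. Heated minus control, Pdk1 differed by 0.25 ± 0.07 in CHIP null cells at 240 min (adjusted p = 0.00972), and by 0.06 to 0.19 in the other comparisons, which did not pass. Pdk1 lost the 240 min CHIP null heat call with an offset of 10 (0.21), with a turned sign under median centring (-0.09) and the deposited log ratio (-0.01). The other Pdk1 probe gave 0.18 for heat in CHIP null cells at 240 min, which did not pass.

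Lactate and glucose cross the cell membrane through carriers. Slc16a3 encodes MCT4, the proton-coupled lactate exporter of highly glycolytic cells and a HIF target, with the 2 cores in the promoter window printed above. Slc16a3 lay at -0.13, -0.15 and -0.08 in heated and 0.07, 0.15 and 0.09 in control CHIP null cells at the 30 min label, against -1.52, -1.37 and -1.43 in heated and -1.34, -1.38 and -1.39 in control wildtype cells. At 240 min Slc16a3 lay at 0.06, 0.11 and 0.12 in heated and -0.11, -0.17 and -0.10 in control CHIP null cells, against -1.02, -0.97 and -1.09 in heated and -1.04, -1.08 and -1.08 in control wildtype cells. In all 4 comparisons every CHIP null array of Slc16a3 lay above every wildtype array. All 12 CHIP null arrays lay above all 12 wildtype arrays, whatever their label. For Slc16a3, CHIP null minus wildtype was 1.32 ± 0.05 in heated and 1.47 ± 0.05 in control cells at 30 min (adjusted p = 1.57e-17 and 9e-19) and 1.12 ± 0.05 and 0.94 ± 0.05 at 240 min (adjusted p = 2.46e-15 and 1.1e-13). Every heated Slc16a3 array lay above every control array in CHIP null cells at 240 min and below all of them in CHIP null cells at 30 min, and the groups overlapped in wildtype cells at both labels. Its heat difference thus had opposite signs at the 2 labels in CHIP null cells. Heated minus control, Slc16a3 differed by -0.22 ± 0.05 in CHIP null cells at 30 min (adjusted p = 0.00187) and 0.22 ± 0.05 in CHIP null cells at 240 min (adjusted p = 0.00204), and by -0.07 to 0.04 in the other comparisons, which did not pass. Slc16a3 lost the 240 min CHIP null heat call with the deposited log ratio (0.13) and the slide block (0.20), with a turned sign under median centring (-0.09). That change of heat effect between labels was itself tested and passed in CHIP null cells (0.44 ± 0.07, 240 minus 30 min, adjusted p = 0.00402), in a comparison where 2.37% of all genes passed, and it was lost with median centring (0.61) and with the slide block (0.43). In wildtype cells 0 of 31 members passed by limma, against 1.26% of all genes, and 2 had an unadjusted p under 0.05.

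Slc2a3 encodes GLUT3, a glucose carrier of high affinity. Slc2a3 lay at -0.18, -0.23 and -0.09 in heated and -0.22, -0.21 and -0.28 in control CHIP null cells at the 30 min label, against 0.20, 0.28 and 0.23 in heated and 0.07, 0.19 and 0.11 in control wildtype cells. At 240 min Slc2a3 lay at -0.37, -0.26 and -0.30 in heated and -0.43, -0.42 and -0.35 in control CHIP null cells, against -0.001, -0.04 and -0.05 in heated and -0.05, -0.15 and -0.12 in control wildtype cells. In all 4 comparisons every CHIP null array of Slc2a3 lay below every wildtype array. For Slc2a3, CHIP null minus wildtype was -0.40 ± 0.05 in heated and -0.36 ± 0.05 in control cells at 30 min (adjusted p = 1.09e-06 and 4.71e-06) and -0.28 ± 0.05 and -0.29 ± 0.05 at 240 min (adjusted p = 0.000494 and 0.000293). Slc2a3 lost the 240 min heated genotype call with the slide block (-0.34). Slc2a3 also lost the 240 min control genotype call with the slide block (-0.28). Every heated Slc2a3 array lay above every control array in wildtype cells at both labels, and the groups overlapped in CHIP null cells at both labels. Heated minus control, Slc2a3 differed by 0.07 to 0.11, and no difference passed the test. Slc2a1 encodes GLUT1, the main glucose carrier of fibroblasts and a HIF target. Slc2a1 lay at 1.11, 0.93 and 1.07 in heated and 1.16, 1.23 and 1.24 in control CHIP null cells at the 30 min label, against 0.96, 0.96 and 0.96 in heated and 0.95, 0.96 and 0.89 in control wildtype cells. At 240 min Slc2a1 lay at 1.81, 1.65 and 1.62 in heated and 1.52, 1.60 and 1.61 in control CHIP null cells, against 1.51, 1.59 and 1.54 in heated and 1.45, 1.43 and 1.48 in control wildtype cells. Every CHIP null Slc2a1 array lay above every wildtype array in control cells at 30 min, heated cells at 240 min and control cells at 240 min, and the groups overlapped in heated cells at 30 min. For Slc2a1, CHIP null minus wildtype was 0.07 ± 0.06 in heated and 0.28 ± 0.06 in control cells at 30 min (adjusted p = 0.396 and 0.000324) and 0.15 ± 0.06 and 0.12 ± 0.06 at 240 min (adjusted p = 0.0945 and 0.186). Slc2a1 lost the 30 min control genotype call with the slide block (0.14). Every heated Slc2a1 array lay above every control array in CHIP null cells at 240 min, wildtype cells at 30 min and wildtype cells at 240 min and below all of them in CHIP null cells at 30 min. Heated minus control, Slc2a1 differed by -0.18 ± 0.06 in CHIP null cells at 30 min (adjusted p = 0.018), and by 0.03 to 0.12 in the other comparisons, which did not pass. Slc2a1 lost the 30 min CHIP null heat call with the deposited log ratio, the slide block and only those groups in the fit (-0.18 to -0.10) and without heated array 2 or control arrays 2 or 3 (-0.17 to -0.12).

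**Figure D4:**
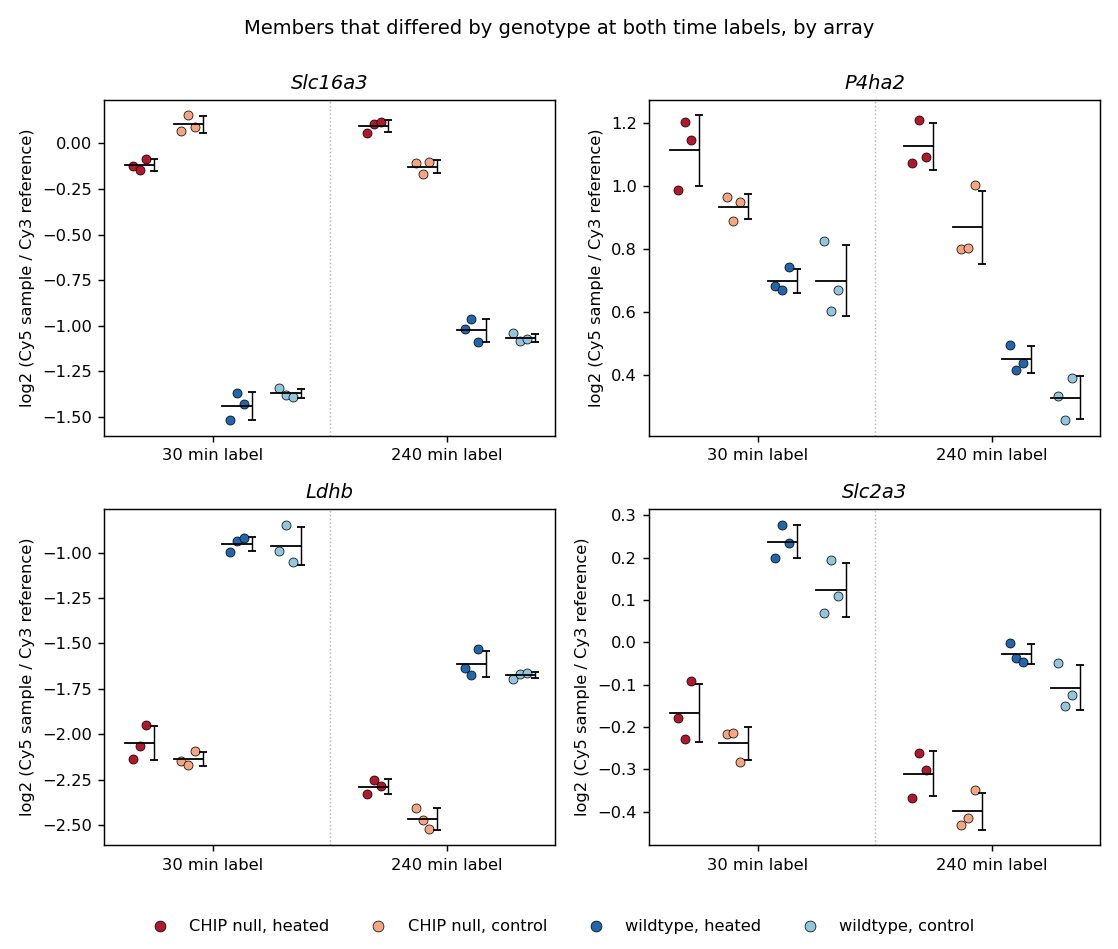
Log2 ratio of Slc16a3, P4ha2, Ldhb and Slc2a3 on each array (points), with the group mean (line) and SD (bar, n = 3), for heated and control CHIP null and wildtype cells at the 2 time labels. The CHIP null arrays lie above the wildtype arrays of the same label for Slc16a3 and P4ha2 and below them for Ldhb and Slc2a3.

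HIF activity is set mostly by the stability of its alpha subunit, which mRNA levels do not show. Hif1a encodes that subunit. Hif1a lay at -0.10, -0.17 and -0.23 in heated and 0.09, 0.12 and 0.24 in control CHIP null cells at the 30 min label, against -0.20, -0.19 and -0.13 in heated and 0.13, 0.12 and -0.18 in control wildtype cells. At 240 min Hif1a lay at 0.52, 0.06 and -0.03 in heated and 0.68, 0.50 and 0.82 in control CHIP null cells, against 0.41, 0.12 and 0.07 in heated and 0.69, 0.64 and 0.67 in control wildtype cells. The genotypes overlapped in Hif1a in all 4 comparisons. For Hif1a, CHIP null minus wildtype lay between -0.02 and 0.13 in the 4 comparisons, and none passed. Every heated Hif1a array lay below every control array in CHIP null cells at 30 min and wildtype cells at 240 min, and the groups overlapped in CHIP null cells at 240 min and wildtype cells at 30 min. At 240 min in CHIP null cells the overlap came from heated array 1, and at 30 min in wildtype cells from control array 3. Heated minus control, Hif1a differed by -0.32 ± 0.11 in CHIP null cells at 30 min (adjusted p = 0.02), -0.49 ± 0.11 in CHIP null cells at 240 min (adjusted p = 0.000964) and -0.47 ± 0.11 in wildtype cells at 240 min (adjusted p = 0.00172), and by -0.19 ± 0.11 in wildtype cells at 30 min, which did not pass. Hif1a lost the 30 min CHIP null heat call with the slide block (-0.25) and without heated arrays 2 or 3 or control array 3 (-0.31 to -0.27). Hif1a also lost the 240 min wildtype heat call with the slide block (-0.25). Within the slides that hold both treatments of a genotype, the arrays lay as follows. On the slide of the 30 min heated CHIP null array 1 (-0.10), all 3 controls lay above it. Where the 3 heated CHIP null arrays of 240 min shared a slide with control array 3 (0.82), all 3 lay below it. On the slide of the 30 min heated wildtype arrays, control array 3 (-0.18) lay within their range. Heated wildtype array 1 of 240 min (0.41) lay below the 3 controls of its slide. The 240 min CHIP null difference of Hif1a passed under every alternative, at -0.64 with the slide block.

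Egln3 encodes the prolyl hydroxylase PHD3, itself induced by HIF, and was well above background on 2 of 3 heated CHIP null arrays at 30 min and on all other arrays. Egln3 lay at -0.50, -0.62 and -0.57 in heated and -0.85, -0.66 and -0.67 in control CHIP null cells at the 30 min label, against -0.51, -0.60 and -0.42 in heated and -0.41, -0.58 and -0.46 in control wildtype cells. At 240 min Egln3 lay at -0.90, -0.81 and -0.79 in heated and -1.004, -0.97 and -1.01 in control CHIP null cells, against -0.69, -0.66 and -0.68 in heated and -0.80, -0.90 and -0.87 in control wildtype cells. Every CHIP null Egln3 array lay below every wildtype array in control cells at 30 min, heated cells at 240 min and control cells at 240 min, and the groups overlapped in heated cells at 30 min. For Egln3, CHIP null minus wildtype was -0.06 ± 0.06 in heated and -0.24 ± 0.06 in control cells at 30 min (adjusted p = 0.553 and 0.00249) and -0.15 ± 0.06 and -0.14 ± 0.06 at 240 min (adjusted p = 0.106 and 0.167). Egln3 lost the 30 min control genotype call with median centring (-0.22) and the slide block (-0.32). Every heated Egln3 array lay above every control array in CHIP null cells at 30 min, CHIP null cells at 240 min and wildtype cells at 240 min, and the groups overlapped in wildtype cells at 30 min. Heated minus control, Egln3 differed by 0.16 ± 0.06 in CHIP null cells at 30 min (adjusted p = 0.0407), 0.16 ± 0.06 in CHIP null cells at 240 min (adjusted p = 0.0382) and 0.18 ± 0.06 in wildtype cells at 240 min (adjusted p = 0.0273), and by -0.03 ± 0.06 in wildtype cells at 30 min, which did not pass. Egln3 lost the 30 min CHIP null heat call with an offset of 10, the slide block, no filter on dim probes and only those groups in the fit (0.16 to 0.22) and without heated arrays 1 or 3 or control array 1 (0.10 to 0.17), with a turned sign under median centring (-0.06) and the deposited log ratio (-0.17). Egln3 also lost the 240 min CHIP null heat call with the deposited log ratio, an offset of 10, the slide block, no filter on dim probes and only those groups in the fit (0.11 to 0.18) and without heated arrays 2 or 3 or control arrays 1 or 3 (0.14 to 0.16), with a turned sign under median centring (-0.14). Egln3 also lost the 240 min wildtype heat call with median centring, the deposited log ratio, an offset of 10 and the slide block (0.01 to 0.23) and without heated arrays 2 or 3 or control arrays 2 or 3 (0.16 to 0.18). Egln1, which encodes the main prolyl hydroxylase PHD2, ranged over -0.42 to -0.10 on the 24 arrays and was called in no heat or genotype comparison.

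**Figure D5:**
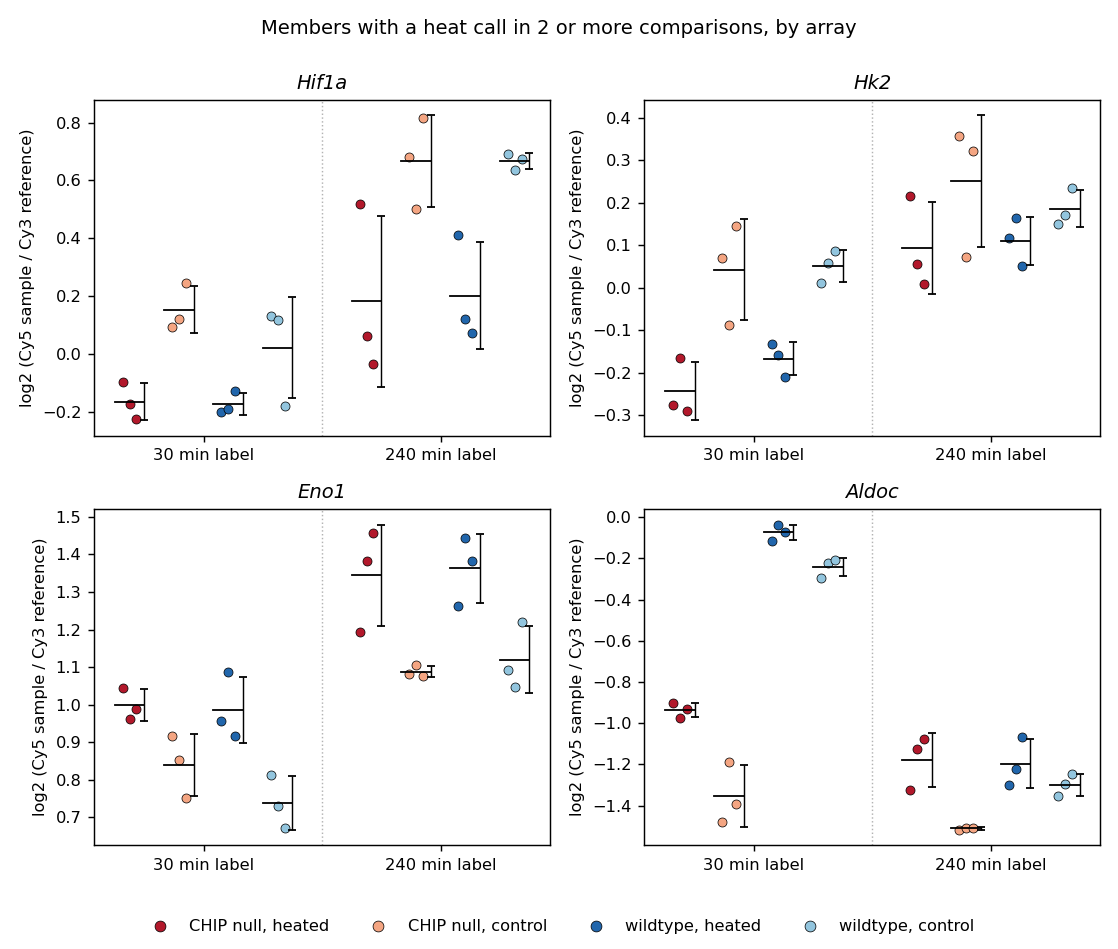
Log2 ratio of Hif1a, Hk2, Eno1 and Aldoc, 4 of the members with a heat call in 2 or more comparisons, on each array (points), with the group mean (line) and SD (bar, n = 3), for heated and control CHIP null and wildtype cells at the 2 time labels. Hif1a lies lower in heated than in control cells at 240 min with heated array 1 of each genotype nearest the controls, and Eno1 lies higher in heated cells in every pair.

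HIF targets that are secreted include a vascular peptide and a growth factor. Adm encodes adrenomedullin, a peptide that widens vessels. Adm lay at 1.72, 1.36 and 1.38 in heated and 1.87, 1.65 and 1.74 in control CHIP null cells at the 30 min label, against 1.57, 1.75 and 1.45 in heated and 1.68, 1.80 and 1.65 in control wildtype cells. At 240 min Adm lay at 2.04, 2.20 and 2.24 in heated and 2.24, 2.14 and 2.25 in control CHIP null cells, against 2.28, 2.38 and 2.36 in heated and 2.35, 2.42 and 2.38 in control wildtype cells. Every CHIP null Adm array lay below every wildtype array in heated and control cells at 240 min, and the groups overlapped in heated and control cells at 30 min. For Adm, CHIP null minus wildtype lay between -0.18 and 0.05 in the 4 comparisons, and none passed. For Adm the heated and control arrays overlapped in all 4 comparisons. Heated minus control, Adm differed by -0.27 ± 0.08 in CHIP null cells at 30 min (adjusted p = 0.0133), and by -0.12 to -0.04 in the other comparisons, which did not pass. Adm lost the 30 min CHIP null heat call with the deposited log ratio, an offset of 10 and the slide block (-0.17 to -0.03) and without heated arrays 2 or 3 or control array 1 (-0.22 to -0.21). Vegfa encodes vascular endothelial growth factor A. Vegfa lay at -0.76, -0.75 and -0.81 in heated and -0.82, -0.70 and -0.70 in control CHIP null cells at the 30 min label, against -0.93, -1.01 and -0.85 in heated and -0.80, -0.84 and -0.73 in control wildtype cells. At 240 min Vegfa lay at -0.93, -0.90 and -0.93 in heated and -0.65, -0.74 and -0.80 in control CHIP null cells, against -1.18, -1.13 and -1.22 in heated and -0.98, -1.04 and -1.12 in control wildtype cells. Every CHIP null Vegfa array lay above every wildtype array in heated cells at 30 min, heated cells at 240 min and control cells at 240 min, and the groups overlapped in control cells at 30 min. For Vegfa, CHIP null minus wildtype was 0.16 ± 0.06 in heated and 0.04 ± 0.06 in control cells at 30 min (adjusted p = 0.0387 and 0.592) and 0.26 ± 0.06 and 0.32 ± 0.06 at 240 min (adjusted p = 0.00261 and 0.000237). Vegfa lost the 30 min heated genotype call with median centring, the slide block, the mean over probes, no filter on dim probes and only those groups in the fit (0.08 to 0.24) and without CHIP null arrays 1 or 2 or wildtype arrays 1 or 2 (0.12 to 0.16). Vegfa also lost the 240 min heated genotype call with median centring (0.16) and the slide block (0.36). Vegfa also lost the 240 min control genotype call with the slide block (0.35). The other probes of Vegfa, 2 in number, gave 0.37 and 0.29 in heated and 0.39 and 0.27 in control cells at 240 min, all past the test. Every heated Vegfa array lay below every control array in CHIP null cells at 240 min, wildtype cells at 30 min and wildtype cells at 240 min, and the groups overlapped in CHIP null cells at 30 min. Heated minus control, Vegfa differed by -0.19 ± 0.06 in CHIP null cells at 240 min (adjusted p = 0.013), and by -0.15 to -0.03 in the other comparisons, which did not pass. Vegfa lost the 240 min CHIP null heat call with the slide block (-0.12) and the mean over probes (-0.06) and without control array 1 (-0.15). Its other probes gave -0.005 and 0.00 for heat in CHIP null cells at 240 min, and neither passed.

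Bnip3 encodes a mitochondrial protein of mitophagy and is a HIF target. Bnip3 lay at -2.85, -2.65 and -2.70 in heated and -2.98, -2.77 and -2.94 in control CHIP null cells at the 30 min label, against -2.73, -2.60 and -2.51 in heated and -2.59, -2.53 and -2.69 in control wildtype cells. At 240 min Bnip3 lay at -2.68, -2.81 and -2.80 in heated and -2.66, -2.54 and -2.81 in control CHIP null cells, against -2.91, -2.86 and -3.00 in heated and -2.82, -2.76 and -2.89 in control wildtype cells. Every CHIP null Bnip3 array lay above every wildtype array in heated cells at 240 min and below all of them in control cells at 30 min, and the groups overlapped in heated cells at 30 min and control cells at 240 min. For Bnip3, CHIP null minus wildtype was -0.12 ± 0.07 in heated and -0.30 ± 0.07 in control cells at 30 min (adjusted p = 0.262 and 0.00245) and 0.16 ± 0.07 and 0.15 ± 0.07 at 240 min (adjusted p = 0.179 and 0.198). Bnip3 lost the 30 min control genotype call with median centring, the deposited log ratio and the slide block (-0.19 to -0.14). For Bnip3 the heated and control arrays overlapped in all 4 comparisons. Heated minus control, Bnip3 differed by -0.10 to 0.17, and no difference passed the test. Ndrg1 encodes a stress-induced cytoplasmic protein, a HIF target. Ndrg1 lay at -2.47, -1.80 and -1.84 in heated and -2.09, -2.20 and -2.28 in control CHIP null cells at the 30 min label, against -1.64, -1.93 and -1.84 in heated and -1.84, -1.90 and -1.63 in control wildtype cells. At 240 min Ndrg1 lay at -2.15, -2.06 and -2.12 in heated and -1.95, -1.93 and -2.13 in control CHIP null cells, against -2.54, -2.42 and -2.39 in heated and -2.47, -2.32 and -2.34 in control wildtype cells. Every CHIP null Ndrg1 array lay above every wildtype array in heated and control cells at 240 min and below all of them in control cells at 30 min, and the groups overlapped in heated cells at 30 min. Its genotype difference in controls thus had opposite signs at the 2 labels, and heated CHIP null array 1 at 30 min lay far below the other arrays of its group. For Ndrg1, CHIP null minus wildtype was -0.23 ± 0.11 in heated and -0.40 ± 0.11 in control cells at 30 min (adjusted p = 0.136 and 0.00618) and 0.34 ± 0.11 and 0.37 ± 0.11 at 240 min (adjusted p = 0.0439 and 0.0256). Ndrg1 lost the 30 min control genotype call with median centring (-0.24) and without wildtype array 3 (-0.32), with a turned sign under the slide block (0.33). Ndrg1 also lost the 240 min heated genotype call with median centring, the deposited log ratio, the mean over probes and no filter on dim probes (0.29 to 0.36) and without any single array (0.29 to 0.37). Ndrg1 also lost the 240 min control genotype call with the deposited log ratio (0.41) and the slide block (0.29) and without CHIP null arrays 1 or 2 or wildtype arrays 1 or 3 (0.33 to 0.39). For Ndrg1 the heated and control arrays overlapped in all 4 comparisons. Heated minus control, Ndrg1 differed by -0.10 to 0.16, and no difference passed the test.

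Collagen needs hydroxylated prolines and disulfide bonds, made by enzymes that HIF raises. P4ha2 encodes the second catalytic subunit of collagen prolyl 4-hydroxylase. P4ha2 lay at 0.99, 1.20 and 1.15 in heated and 0.97, 0.89 and 0.95 in control CHIP null cells at the 30 min label, against 0.68, 0.67 and 0.74 in heated and 0.83, 0.61 and 0.67 in control wildtype cells. At 240 min P4ha2 lay at 1.07, 1.21 and 1.09 in heated and 0.80, 0.81 and 1.003 in control CHIP null cells, against 0.50, 0.42 and 0.44 in heated and 0.34, 0.26 and 0.39 in control wildtype cells. In all 4 comparisons every CHIP null array of P4ha2 lay above every wildtype array. Within each label, all 6 CHIP null arrays lay above all 6 wildtype arrays. For P4ha2, CHIP null minus wildtype was 0.41 ± 0.07 in heated and 0.23 ± 0.07 in control cells at 30 min (adjusted p = 2.19e-05 and 0.0075) and 0.68 ± 0.07 and 0.54 ± 0.07 at 240 min (adjusted p = 1.87e-08 and 8.15e-07). P4ha2 lost the 30 min heated genotype call with median centring (0.38). P4ha2 also lost the 30 min control genotype call without wildtype array 2 (0.19). Every heated P4ha2 array lay above every control array in CHIP null cells at 30 min, CHIP null cells at 240 min and wildtype cells at 240 min, and the groups overlapped in wildtype cells at 30 min. Heated minus control, P4ha2 differed by 0.18 ± 0.07 in CHIP null cells at 30 min (adjusted p = 0.0409) and 0.26 ± 0.07 in CHIP null cells at 240 min (adjusted p = 0.00444), and by -0.001 to 0.12 in the other comparisons, which did not pass. P4ha2 lost the 30 min CHIP null heat call with the deposited log ratio, an offset of 10, the slide block, no filter on dim probes and only those groups in the fit (0.05 to 0.18) and without heated arrays 2 or 3 or control arrays 1, 2 or 3 (0.13 to 0.19), with a turned sign under median centring (-0.26). P4ha2 also lost the 240 min CHIP null heat call with the deposited log ratio (0.17) and the slide block (0.12), with a turned sign under median centring (-0.04). P4ha1, the first catalytic subunit, ranged over 0.29 to 1.27 on the 24 arrays and was called in no heat or genotype comparison.

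Ero1a (Ero1l in older names) encodes the oxidase that drives disulfide formation in the endoplasmic reticulum. Ero1a lay at 0.90, 0.54 and 0.77 in heated and 0.63, 0.85 and 0.92 in control CHIP null cells at the 30 min label, against 0.69, 0.66 and 0.60 in heated and 0.80, 0.80 and 0.53 in control wildtype cells. At 240 min Ero1a lay at 1.20, 1.08 and 1.05 in heated and 1.24, 1.08 and 1.16 in control CHIP null cells, against 0.86, 0.69 and 0.76 in heated and 0.84, 0.94 and 0.80 in control wildtype cells. Every CHIP null Ero1a array lay above every wildtype array in heated and control cells at 240 min, and the groups overlapped in heated and control cells at 30 min. For Ero1a, CHIP null minus wildtype was 0.09 ± 0.08 in heated and 0.09 ± 0.08 in control cells at 30 min (adjusted p = 0.505 and 0.463) and 0.34 ± 0.08 and 0.30 ± 0.08 at 240 min (adjusted p = 0.00678 and 0.0148). Ero1a lost the 240 min heated genotype call with median centring (0.25) and the slide block (0.38). Ero1a also lost the 240 min control genotype call with median centring, an offset of 10, the slide block and the mean over probes (0.14 to 0.44) and without CHIP null array 1 or wildtype arrays 1 or 3 (0.26 to 0.29). The other Ero1a probe gave 0.09 in heated and -0.02 in control cells at 240 min, and neither passed. For Ero1a the heated and control arrays overlapped in all 4 comparisons. Heated minus control, Ero1a differed by -0.09 to -0.05, and no difference passed the test.

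The change of the genotype difference between labels, 240 minus 30 min, was tested as a comparison added after the data were seen. In heated cells 8 of 31 members passed with a higher and 1 with a lower value at 240 min, against 7.25% and 10.5% of all genes. In control cells the counts were 12 and 1, against 9.14% and 8.92%. Aldoc, Pfkp and Pfkm were among those higher in both treatments, and the lower ones were Ldha in heated and Slc16a3 in control cells. With median centring 2 members passed with a higher value in heated and 3 in control cells, where Aldoc and Pfkp passed in both and Pfkm in neither. Of the other probes of the members called, 1 of 8 passed with the same sign in heated and 3 of 10 in control cells, and 6 and 10 had the same sign. Each comparison includes 3 of the 6 wildtype arrays with Y-linked RNA. Between labels within control cells, 8 members were higher and 6 lower at 240 min in CHIP null cells, against 19% and 29.6% of all genes, and 7 and 16 in wildtype cells, against 27.9% and 35.6%. Time and slide cannot be told apart in these counts, nor, in wildtype cells, time and the sex of the embryos.

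The other genes of these pathways were counted after heat with the same limma fit. Of 33 tested among 39 other genes of glycolysis and pyruvate use, the calls were 7, all higher, in CHIP null cells at 30 min, 11, all higher, at 240 min, 1 higher in wildtype cells at 30 min and 6 higher and 1 lower at 240 min. Among 43 tested of 50 other HIF targets they were 7 higher and 6 lower in CHIP null cells at 30 min, 7 higher and 8 lower at 240 min, 2, all lower, in wildtype cells at 30 min and 4 higher and 6 lower at 240 min. The HIF machinery, with 19 tested genes of 20, had 4 higher and 3 lower in CHIP null cells at 30 min, 3 higher and 2 lower at 240 min, 1 lower in wildtype cells at 30 min and 2 higher and 2 lower at 240 min. For 9 tested of 10 genes of the pentose phosphate pathway the calls were 3 higher and 1 lower in CHIP null cells at 30 min, 4 higher and 2 lower at 240 min, 0 (2 at an unadjusted p under 0.05) in wildtype cells at 30 min and 2, all higher, at 240 min, and for 18 of 18 genes of the citric acid cycle 7 higher and 1 lower in CHIP null cells at 30 min, 7 higher and 1 lower at 240 min, 1 higher and 1 lower in wildtype cells at 30 min and 5, all higher, at 240 min. Of all genes, 22.6% higher and 12.6% lower were called in CHIP null cells at 30 min, 24.5% higher and 14.5% lower at 240 min, 6.77% higher and 7.79% lower in wildtype cells at 30 min and 18.8% higher and 12.7% lower at 240 min. Genes of these lists with large called heat differences included, in CHIP null cells at 30 min, Rbpj, a Notch transcription factor (-0.53 ± 0.09, adjusted p = 6.97e-05), and Ddit4, an inhibitor of mTOR signalling (-0.50 ± 0.11, adjusted p = 0.00134). At 240 min in CHIP null cells they were Errfi1, an inhibitor of epidermal growth factor receptors (-0.72 ± 0.08), Rbpj (-0.53 ± 0.09) and Cited2, which competes with HIF for its coactivators (-0.52 ± 0.08), with adjusted p = 1.28e-07, 5.83e-05 and 3.16e-05. Wildtype cells at 30 min had Rbpj (-0.32 ± 0.09, adjusted p = 0.0148) and Sucla2, a subunit of succinyl-CoA ligase (-0.32 ± 0.07, adjusted p = 0.0023). Wildtype cells at 240 min had Errfi1 (-0.70 ± 0.08), Cited2 (-0.45 ± 0.08) and Ddit4 (-0.44 ± 0.11), with adjusted p = 2.57e-07, 0.00024 and 0.00488.

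Between genotypes, the calls in CHIP null against wildtype cells among the other genes of glycolysis and pyruvate use were 1 higher and 9 lower in heated cells at 30 min, 3 higher and 13 lower in controls at 30 min, 2 higher and 4 lower in heated cells at 240 min and 1 higher and 5 lower in controls at 240 min. Among the other HIF targets they were 6 higher and 9 lower in heated cells at 30 min, 10 higher and 12 lower in controls at 30 min, 4 higher and 2 lower in heated cells at 240 min and 5 higher and 3 lower in controls at 240 min. The HIF machinery had 3, all lower, in heated cells at 30 min, 6, all lower, in controls at 30 min, 0 (2 at an unadjusted p under 0.05) in heated cells at 240 min and 1 higher and 2 lower in controls at 240 min. For the pentose phosphate pathway the calls were 2 higher and 1 lower in heated cells at 30 min, 2 higher and 3 lower in controls at 30 min, 3, all higher, in heated cells at 240 min and 2, all higher, in controls at 240 min, and for the citric acid cycle 1 higher and 3 lower in heated cells at 30 min, 4, all lower, in controls at 30 min, 3, all lower, in heated cells at 240 min and 2, all lower, in controls at 240 min. Of all genes, 14.2% higher and 13.3% lower were called in heated and 14.7% higher and 19.4% lower in control cells at 30 min, and 4.66% higher and 8.3% lower in heated and 4.8% higher and 8.26% lower in control cells at 240 min. In the 30 min controls the median of the other glycolysis genes was -0.10, against -0.01 over all genes and -0.05 over the members.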

How the data were processed

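The 24 arrays, 3 for each of 8 groups of mouse embryonic fibroblasts, were 2-colour Agilent arrays with sample RNA (500 ng) in Cy5 and Universal Mouse Reference RNA in Cy3, per the labels. The deposited spot and background intensities were measured by the authors with a GenePix 4000B scanner and Agilent Feature Extraction 9.1.3.1, per the file headers. The deposited log10 ratios are those of that software after its own background subtraction and dye normalization, per the file headers. The deposited value table of the authors was treated as a score, since its scale and full processing are unknown, and served only to check the labels. Its column medians lay between -0.0462 and 0.0230. For the check, the mean deposited ratio of the matching control arrays was subtracted from each heated scanner array, and control arrays were left as they were. After that step the table's columns correlated with the scanner arrays of the opposite time label at 0.9975 or more, against 0.9004 or less with their own.

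Background was corrected with normexp (offset 50) and ratios were normalized within arrays by loess in limma 3.58.1 (R 4.3.3), with control spots at weight 0 and 333 outlier spots left out. A gene was read from its brightest probe and tested where some group had its 3 Cy5 spots called well above background. Group means over all 24 arrays were fitted with lmFit and eBayes (16 residual and 11.7 prior degrees of freedom), adjusted p-values are Benjamini-Hochberg values over the 13486 genes of a comparison, and groups were those of the labels. The fit was tested on simulated data for heat in wildtype cells at 30 min (13371 genes), where it found 100% of changes of 1 and 96% of changes of 0.5, with 5 false calls. The simulated noise was independent between arrays, with no slide effect, and no change under 0.5 was set. Its figures therefore do not cover slide effects or the members' heat differences, which were under 0.5. Precision is limited by the number of arrays. Probes were named by symbol, accession or gene ID.

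The members and the other gene lists were chosen with earlier results of these data known, and the genotype by time comparisons were added after the data were seen. Values on every array were given for members called in a heat, genotype or interaction comparison with a difference of at least 0.3, members called after heat, Hif1a, and the 2 members of largest heat difference in each comparison. Genes of the other lists were named for the 3 largest called heat differences of at least 0.3, and 1 result under that rule is not reported here. Alternatives were median centring, the deposited ratio, an offset of 10, the slide or the replicate number as a block, the mean over probes, other filters on dim probes, a fit of only the groups compared, and leaving out each array.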

Additional observations from a re-analysis of the deposited data

Results flagged for a closer look

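The CHIP null minus wildtype difference changed between the labels in several members by the test of that change itself, with limma and an adjusted p under 0.05. The change is given as the difference at 240 min minus that at 30 min. In both treatments it passed for Hk1 (0.36 in heated and 0.41 in control cells), Gpi1 (0.31 in heated and 0.37 in control cells), Pfkm (0.45 in heated and 0.67 in control cells), Pfkp (0.66 in heated and 0.74 in control cells), Aldoa (0.44 in heated and 0.46 in control cells), Aldoc (0.88 in heated and 0.90 in control cells), Ldhb (0.42 in heated and 0.38 in control cells) and Ndrg1 (0.57 in heated and 0.77 in control cells). For Ndrg1 in heated cells the value was 0.35 without heated CHIP null array 1 of the 30 min label. In heated cells it also passed for Ldha (-0.51), where the heated CHIP null group of 240 min and the heated wildtype group of 30 min have 2 values each. The other Ldha probe differed between genotypes by 0.21 at 30 min and 0.22 at 240 min in heated cells. The Ldha call was lost with median centring (-0.80), the deposited ratio (-0.36) and the slide block (-0.63). In control cells it also passed for Pgk1 (0.25), Slc16a3 (-0.53) and Vegfa (0.27), and for Bnip3 (0.45) and P4ha2 (0.31). For Ldhb and Slc16a3 the sign of the difference was the same at both labels, and for Aldoa and Ndrg1 it was opposite. The Aldoa difference in control cells at 240 min and the Ndrg1 difference in heated cells at 30 min did not pass. The other Aldoa probe kept its sign between labels, and the slide block turned that of Ndrg1 in controls at 30 min. With median centring 2 members passed with a higher value in heated and 3 in control cells, and the calls of Hk1, Gpi1, Pfkm, Aldoa and Ldhb were lost in both treatments. Of the other probes of the members called, 1 of 8 passed with the same sign in heated and 3 of 10 in control cells. With the slide as a block, 5 members passed with a higher value in heated and 4 in control cells, and Ndrg1 in control cells was at -0.041. Each comparison includes 3 of the 6 wildtype arrays of the 30 min label that carried Y-linked RNA and had Xist not well above background, and their part in the result was not tested.

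The heat difference of Slc16a3 in CHIP null cells changed between the labels by 0.44, 240 minus 30 min, a call lost with median centring (0.61) and the slide block (0.43). The same change in wildtype cells was 0.11 ± 0.07 and did not pass, and whether the change differed between genotypes was not tested. Slc16a3 has a single probe on the array.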

How the results depend on the processing

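The members called by limma, out of 31, are counted below where an alternative moved the count by over 1.5 times, and the cause of each move was not tested. With median centring in place of loess, heat in CHIP null cells at 30 min gave 0 higher and 13 lower, heat in CHIP null cells at 240 min gave 0 higher and 10 lower, heat in wildtype cells at 30 min gave 0 higher and 0 lower and heat in wildtype cells at 240 min gave 0 higher and 2 lower. There, genotype in heated cells at 30 min gave 2 higher, genotype in controls at 30 min gave 5 lower, genotype in heated cells at 240 min gave 2 higher and 4 lower and genotype in controls at 240 min gave 2 lower. In that setting, heat by time in CHIP null cells gave 0 higher, time in CHIP null controls gave 2 lower, time in wildtype controls gave 7 lower and genotype by time in heated cells gave 2 higher and 0 lower. Under it, genotype by time in controls gave 3 higher. Less the median of all genes, the members' median moved with centring to -0.11 for heat in CHIP null cells at 30 min, 0.075 for genotype in controls at 30 min, 0.097 for genotype in controls at 240 min, -0.077 for the 30 min genotype by heat interaction, 0.16 for heat by time in CHIP null cells, 0.051 for time in wildtype controls and 0.11 for time in CHIP null controls. With the deposited log10 ratio, heat in CHIP null cells at 30 min gave 3 higher and 9 lower, heat in CHIP null cells at 240 min gave 3 higher, heat in wildtype cells at 30 min gave 5 lower and heat in wildtype cells at 240 min gave 0 higher and 2 lower. There, the 30 min genotype by heat interaction gave 1 lower, time in CHIP null controls gave 2 lower and genotype by time in controls gave 2 lower. Less the median of all genes, the members' median moved with the deposited ratio to -0.085 for heat in CHIP null cells at 30 min, -0.12 for genotype in controls at 30 min and -0.14 for time in wildtype controls. With an offset of 10, heat in CHIP null cells at 30 min gave 2 higher and 8 lower, heat in wildtype cells at 30 min gave 2 higher and 5 lower, heat in wildtype cells at 240 min gave 1 higher and 2 lower and time in CHIP null controls gave 3 lower. There, genotype by time in heated cells gave 2 lower. Less the median of all genes, the members' median moved with the lower offset to -0.072 for heat in CHIP null cells at 30 min, -0.10 for time in wildtype controls, 0.088 for time in CHIP null controls and 0.19 for genotype by time in controls. With the slide as a block, heat in CHIP null cells at 30 min gave 1 higher and 3 lower, heat in CHIP null cells at 240 min gave 1 lower, heat in wildtype cells at 30 min gave 0 lower and heat in wildtype cells at 240 min gave 0 higher and 0 lower. There, genotype in controls at 30 min gave 3 higher and 8 lower, genotype in heated cells at 240 min gave 3 higher and 1 lower, genotype in controls at 240 min gave 2 higher and 1 lower and heat by time in CHIP null cells gave 0 higher. In that setting, genotype by time in heated cells gave 5 higher and 0 lower and genotype by time in controls gave 4 higher. Less the median of all genes, the members' median moved with the slide block to -0.037 for heat in CHIP null cells at 30 min and -0.054 for the 30 min genotype by heat interaction. With the mean over probes, heat in CHIP null cells at 240 min gave 1 lower, heat in wildtype cells at 240 min gave 2 lower, heat by time in CHIP null cells gave 2 higher and genotype by time in heated cells gave 3 lower. Averaged probes called 39.7%, 31.8%, 2.19% and 16.7% of all genes in these comparisons, in that order. With no filter on dim probes, heat in CHIP null cells at 30 min gave 3 higher, heat in wildtype cells at 30 min gave 0 lower and heat in wildtype cells at 240 min gave 2 higher. Without that filter 17.4%, 5.83% and 13.9% of all genes were called there in either direction, against 35.2%, 14.6% and 31.5% with it. Less the median of all genes, the members' median moved without the filter to -0.16 for time in wildtype controls. With only probes well above background on all 24 arrays, heat by time in CHIP null cells gave 2 higher and genotype by time in heated cells gave 2 lower. Among all genes past that stricter filter, 4.41% and 24.1% were called there. Less the median of all genes, the members' median moved with the stricter filter to -0.15 for time in wildtype controls. With only the groups compared in the fit, heat in CHIP null cells at 30 min gave 1 higher, where 31.5% of all genes were called. Of all genes, the shares called in either direction after heat in CHIP null cells at 30 and 240 min and in wildtype cells at 30 and 240 min were 39%, 34.7%, 4.59% and 13.7% with median centring, 34.1%, 21%, 20.3% and 19.7% with the deposited ratio, 33.6%, 29.5%, 16.6% and 23.4% with the lower offset and 20%, 20.3%, 3.36% and 4.57% with the slide block. Between genotypes in heated and control cells at 30 min and in heated and control cells at 240 min median centring called 11.4%, 21.3%, 8.96% and 6.18% and the slide block 12.7%, 12.2%, 2.74% and 3.49%. For time in CHIP null and wildtype controls median centring called 33.5% and 51.9%. For genotype by time in heated and control cells it called 5.69% and 5.81%, and the slide block 4.89% and 5.18%. For heat by time in CHIP null cells these 2 settings called 0.0593% and 0.185%. The deposited ratio called 0.497% for the 30 min genotype by heat interaction, 22.6% for time in CHIP null controls and 18.7% for genotype by time in controls. An offset of 10 called 33.3% for time in CHIP null controls and 18.6% for genotype by time in heated cells.

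Leaving out each array singly gave 2 to 6 higher for heat in CHIP null cells at 30 min, 2 to 5 lower for heat in CHIP null cells at 30 min, 1 to 3 lower for heat in CHIP null cells at 240 min, 5 to 10 higher for heat in CHIP null cells at 240 min and 0 to 0 lower for heat in wildtype cells at 30 min. It also gave 0 to 1 higher for heat in wildtype cells at 30 min, 0 to 3 higher for heat in wildtype cells at 240 min, 3 to 5 higher for genotype in heated cells at 30 min, 3 to 5 higher for genotype in controls at 240 min and 2 to 3 lower for genotype in controls at 240 min. The other such ranges were 1 to 2 higher for heat by time in CHIP null cells, 0 to 1 lower for heat by time in CHIP null cells, -0.20 to -0.16 for the members' median less that of all genes in time in wildtype controls, 1 to 2 lower for genotype by time in heated cells and 1 to 2 lower for genotype by time in controls. Shares of all genes in the fits that left out an array are not given, so these ranges have no background beside them. Median centring turned the sign of Pfkm (-0.14), Pkm (-0.19), Egln3 (-0.058) and P4ha2 (-0.26) in heat in CHIP null cells at 30 min, of Pfkl (-0.089), Pfkp (-0.10), Eno1 (-0.075), Ldhb (-0.079), Pdk1 (-0.087), Slc16a3 (-0.086), Egln3 (-0.14) and P4ha2 (-0.045) in heat in CHIP null cells at 240 min, of Aldoa (0.11), Pgk1 (0.15) and Pgam1 (0.17) in genotype in controls at 30 min. Median centring also turned the sign of Aldoa (-0.0046) in genotype in heated cells at 240 min, of Gpi1 (0.090), Aldoa (0.13), Pgk1 (0.084), Pgam1 (0.16) and Bnip3 (0.011) in time in wildtype controls. The deposited ratio turned the sign of Egln3 (-0.17) in heat in CHIP null cells at 30 min, of Pdk1 (-0.014) in heat in CHIP null cells at 240 min, of Pdk1 (0.55), Adm (-0.35) and Bnip3 (0.25) in time in wildtype controls. The deposited ratio also turned the sign of Eno1 (-0.10), Adm (-0.32) and Egln3 (0.19) in time in CHIP null controls. The slide block turned the sign of Ndrg1 (0.33) in genotype in controls at 30 min, of Ndrg1 (-0.041) in genotype by time in controls. An offset of 10 turned the sign of Bnip3 (0.047) in time in wildtype controls.

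Of 149 called gene differences, 78 stayed called with the same sign under median centring, 107 with the deposited ratio, 124 with an offset of 10, 137 with the mean over probes, 139 with no filter and 139 with only the groups compared. With the slide block 56 of 112 did so, and the time comparisons could not be fitted with it. The filter for probes well above background on all arrays kept 140 of 140. Leaving out arrays singly kept 943 of 1068 calls. Every pair of same-numbered arrays deviated together (r over 0.1) in 0 of 10 comparisons, with pair correlations of -0.26 to 0.57, so the numbers were not taken to pair the arrays. In the genotype comparison of control cells at 240 min every array, however, correlated best with its own number. With the replicate block the count of members lower was 7 for time in CHIP null controls and the count higher 9 for genotype by time in heated cells, and all 149 gene differences stayed called. That block called 49.4% and 18.2% of all genes in these comparisons. The genotype by time comparisons and the slide block of the heat by time comparisons were chosen after seeing the data. Dim spots limit Eno2, Pdk1 and Egln3, and Gapdh was not measured above background.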
